A study of Mus musculus with 167 samples.

Results

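The 7 genes described here are the RUNX transcription factors Runx1, Runx2 and Runx3, their shared partner Cbfb, and the dendritic cell regulators Cbfa2t3, Bcl11a and Zbtb46, taken by symbol out of 57010 gene identifiers. All 7 matched an identifier and had counts. RNA was sequenced from mouse embryonic fibroblasts (MEFs) transduced with lentivirus for 1 of 3 cocktails of transcription factors, and from controls, in 41 groups with 3 to 5 libraries each. PIB holds Pu.1 (gene Spi1), Irf8 and Batf3, PIP holds Pu.1, Irf4 and Prdm1, and SII holds Spib, Irf8 and Ikzf2. All 3 were tested in fibroblasts of a line called C9a, homozygous for Clec9a(Cre/Cre) and Rosa26(tdTomato/tdTomato), and SII was tested also in those of a line called hCD2, heterozygous for hCD2(Cre/WT) and Rosa26(YFP/WT) on a C57BL/6 background. In both lines the fluorescent reporter is switched on once Cre has been made, from the dendritic cell gene Clec9a in the first and under the name of human CD2 in the second. Transduced cells were sorted on days 3, 6 and 9 as CD45+, as reporter+ (tdT+ or YFP+) or as double positive for both. The comparisons below use the double positive cells except where a gate is named, so each cocktail was selected for CD45 and the reporter. SII cells are called C9a.SII or hCD2.SII after their line. The references were splenic dendritic cells of wildtype mice, namely conventional dendritic cells of type 1 (cDC1, sorted as XCR1+ CD11b-, n = 3) and type 2 (cDC2, CD11b+ XCR1-, n = 3) and plasmacytoid dendritic cells (pDC, Siglec-H+ B220+ BST2+, n = 5), and untransduced MEFs negative for CD45 and the reporter (C9a.MEF and hCD2.MEF, n = 4 each). All C9a groups share 1 line, and its Cre and reporter alleles are carried by the MEF controls too, while the splenic cells have neither. The labels do not say whether replicates came from separate cultures or animals, so p-values measure the spread between these libraries, which may be technical.

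RUNX proteins bind the same short DNA motif and need the non-binding subunit CBFb to do so stably. Runx1 is best known from blood stem cells, Runx2 from bone and, in the immune system, from pDC, and Runx3 from cytotoxic lymphocytes and dendritic cells. Cbfa2t3 encodes ETO2 (MTG16), a corepressor of the same family as the RUNX1 fusion partner ETO and a regulator of pDC that represses Id2. Bcl11a is a zinc finger repressor needed for B cells and pDC. Zbtb46 is a repressor whose expression marks conventional dendritic cells and their progenitors within the blood system.

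The promoters of the 3 RUNX genes share a sequence that their own proteins recognise, and it is shown here because it is common to the distal start of all 3. The windows ran from 250 bases before to 50 bases after a RefSeq start in GRCm38.p6, and 10 of them belonged to the 7 genes. The 30 bases around the shared pair are printed 5′ to 3′ on the strand of the gene, with the RUNX motif ACCACA in capitals, which reads TGTGGT on the other strand.

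Runx1, chr16:92826025-92826054, minus strand: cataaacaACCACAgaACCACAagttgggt

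Runx2, chr17:44814583-44814612, minus strand: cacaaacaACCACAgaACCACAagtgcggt

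Runx3, chr4:135120503-135120532, plus strand: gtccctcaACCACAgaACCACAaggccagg

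Each holds 2 copies of ACCACA, with starts 8 bases apart. In Runx1 and Runx2 the pair lies inside the first transcribed bases, and in Runx3 it lies before the start. A pair with this spacing and both copies on the same strand, whichever strand that was, occurred in 7 of 32851 promoter windows (0.0213%). The Runx1, Runx2 and Runx3 windows are among them. A single copy of the motif on either strand was in 5506 (16.8%). The other annotated promoters of Runx1, Runx3 and Cbfa2t3 held none of the motifs searched. The distal promoter of Cbfa2t3 held a purine-rich ETS motif of the kind PU.1 binds (GAGGAAGT, either strand, in 3.2% of promoters), 237 bases before its start. Its 250 bases before the start follow with that motif in capitals, since Spi1 or its relative Spib is in every cocktail.

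Cbfa2t3, chr8:122699110-122699359, minus strand: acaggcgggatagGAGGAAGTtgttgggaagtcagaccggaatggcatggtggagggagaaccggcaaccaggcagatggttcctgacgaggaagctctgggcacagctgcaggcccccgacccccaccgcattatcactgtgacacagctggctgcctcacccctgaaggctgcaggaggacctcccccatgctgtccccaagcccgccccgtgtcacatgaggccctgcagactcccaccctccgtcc

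The promoter of Cbfb held the same ETS motif just after its start, and that of Bcl11a held none of the motifs searched. The Zbtb46 window, chr2:181424339-181424638, held the AP-1 motif TGANTCA (7.81% of promoters). It lies inside the gene as annotated by GENCODE (chr2:181387762-181459426, minus strand) and not at its upstream end. A match is a description of letters and not evidence of binding.

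Library totals ran from 1146927 to 21976374 counts (median 10960122), and levels are given as CPM, the count scaled by the total of its library, where 3 counts correspond to between 0.137 and 2.62 CPM depending on the library. The library with the lowest total is day 9 C9a.SII replicate 1, and pDC replicate 1, with 1838064 counts, is the other under 2000000. Markers checked the labels: summed over 10 leukocyte genes the day 9 double positive libraries had 215 to 498 CPM, the splenic libraries 1433 to 7901 CPM and the MEFs 4.01 to 9.09 CPM. Summed over 10 fibroblast genes the same day 9 libraries had 706 to 8074 CPM, splenic cDC 5.78 to 48.4 CPM and MEFs 14831 to 17948 CPM, so the transduced cells kept fibroblast RNA. Markers of T cells, another source of RUNX transcripts, summed to 1.45 to 10.02 CPM in the day 9 double positive libraries and to 2.37 to 4.45 CPM in MEFs. Of the 8 T cell markers, 5 had counts in the PIB group, 7 in PIP, 7 in C9a.SII and 8 in hCD2.SII. In the spleen the T cell marker sum was 14.3 to 18.8 CPM in cDC1, 22.8 to 27.5 CPM in cDC2 and 78.3 to 166.7 CPM in pDC. The part of T cells in the pDC levels was not tested. In 3 reporter-gated libraries the transduced factors went against the label (PIB day 6 replicate 4, PIP day 3 replicate 5 and C9a.SII day 6 replicate 5), and none of them is in a group tested below. All 3 were kept in the alternative fit over all 41 groups and in the correlations across the means of the 41 groups. Of 97 libraries gated on CD45, 2 had under 5 CPM of its gene Ptprc, and 1 of these, C9a.SII day 3 double positive replicate 2 with 1.52 CPM, enters 2 comparisons, each given below without it as well. In bulk RNA, fewer cells that express a gene and less RNA per cell cannot be told apart.

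The splenic subsets differed in their RUNX genes and in Zbtb46. Runx2 was the pDC gene, Runx3 the cDC2 gene, and Zbtb46 was high in both conventional subsets and low in pDC. A change of at least 2-fold with an adjusted p under 0.05 in edgeR's quasi-likelihood test over all genes is called higher or lower below, and values after ± are SDs for levels and standard errors (SE) for log2 fold changes. Runx2 had 17.5, 20.2 and 18.6 CPM in cDC1, 66.9, 79.6 and 53.4 CPM in cDC2, and 564, 1333, 1603, 913 and 1222 CPM in pDC. No library of one subset overlapped another, and the lowest pDC library lay above the highest cDC2 library. The log2 fold change was -5.84 ± 0.49 for cDC1 over pDC (edgeR adjusted p = 1.1e-05), -3.94 ± 0.40 for cDC2 over pDC (adjusted p = 3.49e-05) and -1.81 ± 0.14 for cDC1 over cDC2 (adjusted p = 2.29e-10).

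Runx3 had 62, 53.8 and 64.7 CPM in cDC1, 270, 267 and 244 CPM in cDC2, and 41.9, 86, 93, 71.1 and 101.5 CPM in pDC. The cDC2 libraries were the highest, and the cDC1 libraries fell within the range of pDC. It was lower in cDC1 than in cDC2 (log2 fold change -2.09 ± 0.10, edgeR adjusted p = 1.77e-14) and higher in cDC2 than in pDC (1.84 ± 0.28, adjusted p = 0.000633). Between cDC1 and pDC its log2 fold change was -0.35 ± 0.32 (adjusted p = 0.547). Runx1 had 93.4, 86.8 and 93.6 CPM in cDC1, 123.2, 114.3 and 84.6 CPM in cDC2, and 39.7, 40.4, 48.1, 49.1 and 59.6 CPM in pDC. The 2 conventional subsets overlapped and both lay above every pDC library. Runx1 was higher in cDC2 than in pDC (log2 fold change 1.27 ± 0.25, edgeR adjusted p = 0.0037). For cDC1 over pDC it reached 0.97 ± 0.28 (adjusted p = 0.0317), just under 2-fold. Cbfb, the shared subunit, followed the same order as Runx1, with 89.8 ± 5.8 CPM in cDC1, 134.4 ± 7.8 CPM in cDC2 and 50.7 ± 16 CPM in pDC. It was higher in cDC2 than in pDC (log2 fold change 1.52 ± 0.28, edgeR adjusted p = 0.00245).

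**Figure D1:**
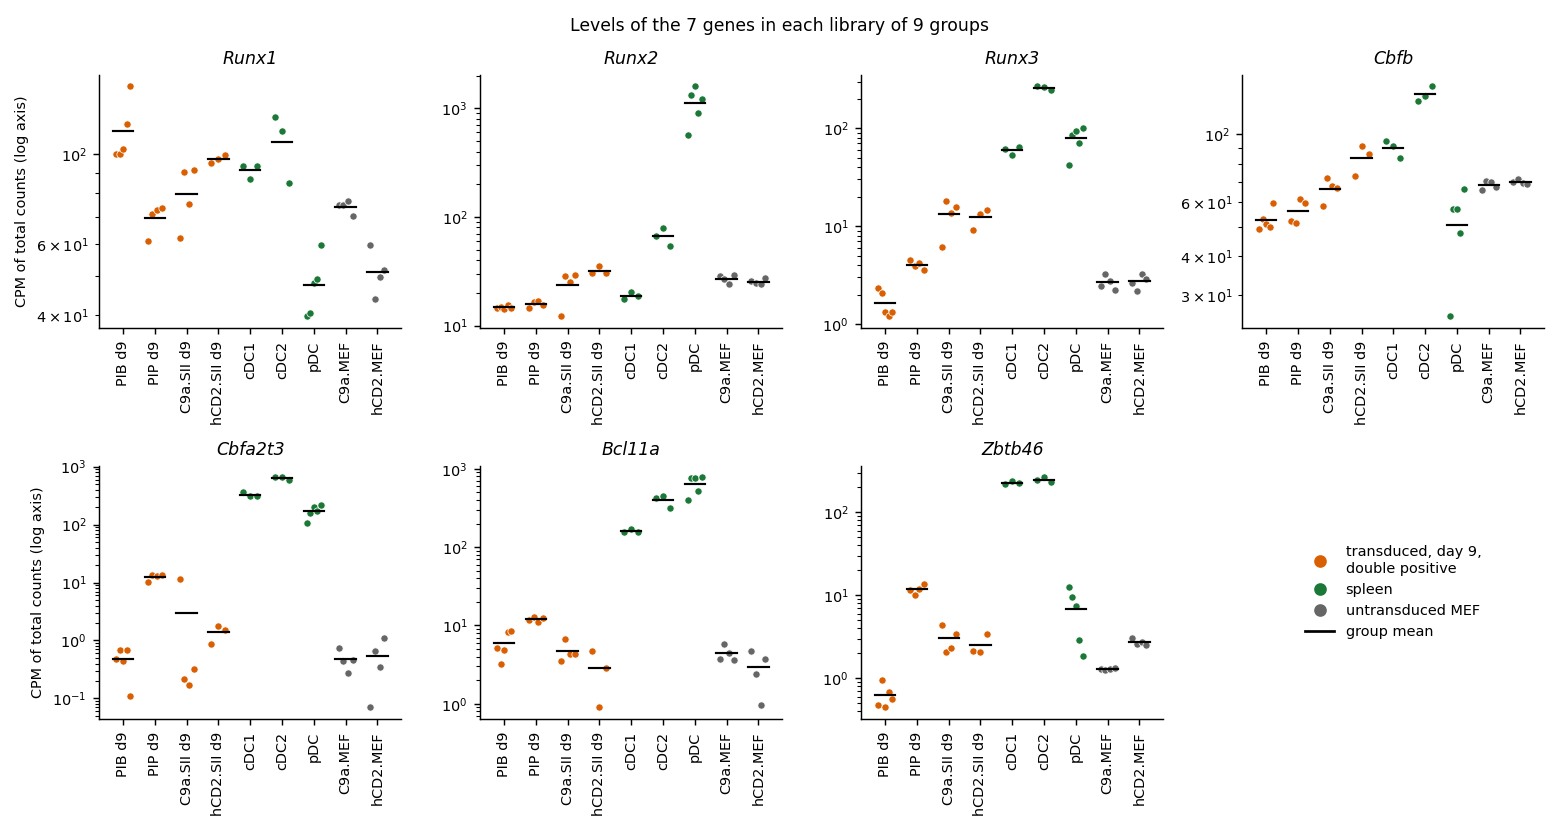
Level of each of the 7 genes (CPM, log axis) in every library of 9 groups, with the 4 day 9 double positive groups in orange, the 3 splenic subsets in green and the 2 MEF groups in grey, and the group mean as a black bar. Runx2 stands out in pDC at 564 to 1603 CPM, Runx3 in cDC2 at 244 to 270 CPM, and Cbfa2t3, Bcl11a and Zbtb46 are far lower in all transduced groups than in cDC1 and cDC2.

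Among the 3 non-RUNX regulators, Zbtb46 separated the conventional subsets from pDC. It had 217, 235 and 224 CPM in cDC1, 245, 263 and 231 CPM in cDC2, and 12.5, 9.63, 7.32, 2.9 and 1.85 CPM in pDC. The 2 conventional subsets overlapped, and both were far from pDC, with log2 fold changes of 5.22 ± 0.48 for cDC1 over pDC (edgeR adjusted p = 1.9e-05) and 5.39 ± 0.50 for cDC2 over pDC (adjusted p = 2.13e-05). Cbfa2t3 had 363, 316 and 312 CPM in cDC1, 651, 655 and 590 CPM in cDC2, and 107.7, 156.8, 198, 172 and 216 CPM in pDC. Although it is known as a pDC regulator, its pDC libraries were the lowest of the 3 subsets, without overlap. It was higher in cDC2 than in pDC (log2 fold change 2.00 ± 0.29, edgeR adjusted p = 0.000476), while cDC1 over pDC gave 0.99 ± 0.33 (adjusted p = 0.0595). Bcl11a had 155.9, 170 and 156.3 CPM in cDC1, 428, 448 and 315 CPM in cDC2, and 404, 773, 766, 523 and 779 CPM in pDC. The cDC1 libraries were lowest, and the cDC2 and pDC libraries overlapped. It was lower in cDC1 than in cDC2 (log2 fold change -1.28 ± 0.10, edgeR adjusted p = 1.13e-09) and than in pDC (-1.96 ± 0.36, adjusted p = 0.00244).

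In all, 3 of the 7 genes were called between cDC1 and cDC2, all lower in cDC1, where 34.8% of all genes tested were called in either direction and 10.7% were lower. Between cDC1 and pDC it was 3 of 7, with Zbtb46 higher and Runx2 and Bcl11a lower, against 15.8% of all genes, 7.88% higher and 7.88% lower. Between cDC2 and pDC it was 6 of 7, with Runx2 lower and 5 higher, against 34.9% of all genes, 23.2% lower and 11.7% higher. That split of all genes rests on all 3 cDC2 libraries being in the fit: with 1 of them left out in turn, 1303 to 1389 genes were lower and 1523 to 1555 higher, against 4121 and 2071 with all, while 6 of 7 were called each time. The pDC group was uneven: replicate 1 had a fibroblast marker sum of 1204 CPM, against 23.3 to 105.6 CPM in the other pDC libraries, and a pDC marker sum of 2650 CPM, against 5291 to 7748 CPM. Without it the number of calls was the same in both comparisons with pDC, while without pDC replicate 5 it was 6 for cDC1 over pDC. Without replicate 1 the log2 fold changes of cDC1 over pDC were -6.01 for Runx2, -2.09 for Bcl11a and 5.58 for Zbtb46.

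Scaled by the length of the merged exons, so that genes can be set beside one another, Runx2 was the leading RUNX gene in pDC, at 127.5 CPM per kb, with 15.7 for Runx3 and 3.94 for Runx1. In cDC2 Runx3 led at 52 CPM per kb, with 8.93 for Runx1 and 7.54 for Runx2. In cDC1 Runx3 had 12.03 CPM per kb, Runx1 7.59 and Runx2 2.12. Cbfa2t3 was the most abundant of the 7 by this measure in both conventional subsets, at 39.5 CPM per kb in cDC1 and 75.5 in cDC2. In C9a.MEF the subunit Cbfb led with 19.6 CPM per kb, and Runx1 had 6.16, Runx2 3.07 and Runx3 0.53.

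PIP was the cocktail after which Cbfa2t3, Bcl11a and Zbtb46 rose together in MEFs. On day 9 the double positive PIP cells had 10.3, 13.2, 13.2 and 13.5 CPM of Cbfa2t3, against 0.73, 0.446, 0.276 and 0.463 CPM in C9a.MEF. Every PIP library lay above every MEF library; the MEF libraries held 3 to 8 counts each. The log2 fold change was 4.91 ± 0.21 (edgeR adjusted p = 2.05e-12). Zbtb46 had 11.5, 10.2, 11.9 and 13.6 CPM in PIP cells, against 1.28, 1.25, 1.29 and 1.31 CPM in C9a.MEF, again without overlap (log2 fold change 3.41 ± 0.16, edgeR adjusted p = 7.25e-12). Bcl11a had 11.8, 12.9, 11.1 and 12.4 CPM in PIP cells, against 3.74, 5.8, 4.41 and 3.62 CPM in C9a.MEF. The groups did not overlap (log2 fold change 1.68 ± 0.15, edgeR adjusted p = 2.81e-08). These 3 of 7 genes were called, all higher, where 29.6% of all genes were called and 15.2% were higher.

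The RUNX genes did not pass the 2-fold threshold in PIP cells. Runx3 had 4.54, 3.87, 4.22 and 3.56 CPM, against 2.46, 3.21, 2.76 and 2.24 CPM in C9a.MEF, which is a small shift without overlap (log2 fold change 0.83 ± 0.20, edgeR adjusted p = 0.00156). Runx2 had 15.9 ± 1.0 CPM, against 27.1 ± 2.3 CPM in C9a.MEF (log2 fold change -0.54 ± 0.09, edgeR adjusted p = 4.48e-05). Runx1 and Cbfb had log2 fold changes of 0.13 ± 0.06 and -0.06 ± 0.07 (adjusted p = 0.0622 and 0.478). The median log2 fold change of the 7 genes was 0.83, and that of all genes tested was 0.05.

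PIB, which shares Pu.1 with PIP, called none of the 7 genes on day 9, where 21.8% of all genes were called. With edgeR 5 of the 6 tested had an unadjusted p under 0.05 and 4 an adjusted one, all with changes under 2-fold, and the DESeq2 Wald test called none either. Cbfa2t3 had 0.478, 0.687, 0.444, 0.687 and 0.111 CPM in PIB cells, against the MEF values above, too low to pass the filter on counts. Zbtb46 had 0.478, 0.944, 0.444, 0.687 and 0.557 CPM in PIB cells, below all 4 C9a.MEF libraries (log2 fold change -0.97 ± 0.31, edgeR adjusted p = 0.0153). Leaving out PIB replicate 2 took it to -1.18 and past the threshold. Bcl11a had 5.1, 3.26, 4.81, 8.33 and 8.47 CPM in PIB cells, which overlapped the C9a.MEF values (log2 fold change 0.49 ± 0.26, edgeR adjusted p = 0.13).

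Runx1 was above and Runx2 below the MEF level in PIB cells, both by less than 2-fold. Runx1 had 99.8, 99.8, 103.2, 118.6 and 147.4 CPM, against 74.8, 74.7, 76.8 and 70.1 CPM in C9a.MEF. Every PIB library was above every MEF library, with a log2 fold change of 0.67 ± 0.09 (edgeR adjusted p = 3.91e-05). Runx2 had 14.6, 14.7, 14.2, 15.6 and 14.5 CPM, against 28.3, 27, 23.9 and 29.2 CPM in C9a.MEF. All PIB libraries were below the MEFs, with a log2 fold change of -0.82 ± 0.08 (edgeR adjusted p = 1.41e-06). Runx3 had 1.65 ± 0.50 CPM in PIB cells and 2.67 ± 0.42 CPM in C9a.MEF (log2 fold change -0.61 ± 0.26, adjusted p = 0.0631). The fibroblast marker sum was also highest in PIB among the C9a cocktails on day 9, at 6452 to 7911 CPM, with 1059 to 1338 CPM in PIP and 1736 to 2336 CPM in C9a.SII. The sum over 11 macrophage markers was high in PIB too, at 828 to 1330 CPM on day 9. It was 121.4 to 199 CPM in PIB on day 3, 132.2 to 182 CPM in PIP on day 9 and 19.5 to 23.1 CPM in C9a.MEF. The part of either marker list in the levels was not tested.

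**Figure D2:**
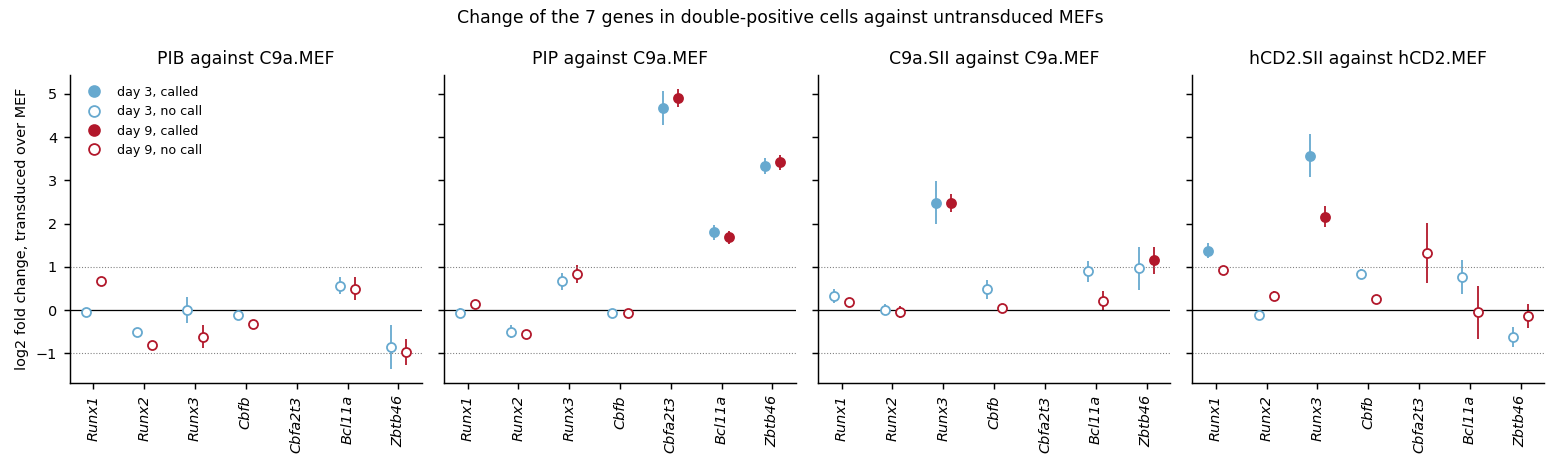
Log2 fold change of each gene in double positive cells over MEFs of the same line, with bars of 1 SE, for day 3 (blue) and day 9 (red) in a panel for each cocktail and line; filled points passed an adjusted p under 0.05 and 2-fold (dotted lines), and genes below the count filter have no point. PIP shows Cbfa2t3, Bcl11a and Zbtb46 on the right on both days, both SII panels show Runx3, and PIB has no filled point.

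SII was the cocktail after which Runx3 rose, in both lines. On day 9 Runx3 had 6.1, 18, 13.5 and 15.5 CPM in C9a.SII cells, against 2.46, 3.21, 2.76 and 2.24 CPM in C9a.MEF. In the other line it had 9.04, 13.3 and 14.8 CPM in hCD2.SII cells, against 2.65, 2.19, 3.27 and 2.86 CPM in hCD2.MEF. Neither pair overlapped. The log2 fold change was 2.48 ± 0.21 in C9a.SII (edgeR adjusted p = 3.67e-06) and 2.16 ± 0.24 in hCD2.SII (adjusted p = 0.000546), and the difference between the lines was -0.28 ± 0.33 (adjusted p = 0.762). Without the C9a.SII library of lowest total the value was 2.57. Without hCD2.SII replicate 1, whose fibroblast marker sum was 8074 CPM beside 777 and 706 CPM, it was 2.29.

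C9a.SII called 2 of the 6 genes tested, both higher, where 21.4% of all genes were called and 10.5% were higher. The second was Zbtb46, with 4.36, 2.05, 2.31 and 3.43 CPM in C9a.SII cells, above all 4 C9a.MEF libraries at 1.25 to 1.31 CPM (log2 fold change 1.15 ± 0.31, edgeR adjusted p = 0.0105). The call was lost with no filter on low counts (adjusted p = 0.055) and in 1 fit over all groups (adjusted p = 0.215). Cbfa2t3 had 11.3, 0.216, 0.171 and 0.321 CPM in C9a.SII cells. The single high value rests on 13 counts in the smallest library, which also had a macrophage marker sum of 2207 CPM beside 115.3 to 298 CPM in the other 3, and the gene did not pass the count filter. Bcl11a had 3.49, 6.7, 4.28 and 4.28 CPM, which overlapped C9a.MEF (log2 fold change 0.21 ± 0.23, edgeR adjusted p = 0.492).

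hCD2.SII called 1 of 7 genes, Runx3, where 19.2% of all genes were called and 10.8% were higher. Runx1 had 95.2, 97 and 99.4 CPM in hCD2.SII cells, against 59.4, 43.8, 49.6 and 51.8 CPM in hCD2.MEF. The groups were apart, but the log2 fold change of 0.92 ± 0.11 (edgeR adjusted p = 0.000778) was under 2-fold. In C9a.SII cells Runx1 had 61.9, 90.3, 75.1 and 91.4 CPM, which overlapped the C9a.MEF libraries (log2 fold change 0.20 ± 0.08, adjusted p = 0.0642). The change of Runx1 was larger in the hCD2 line by 0.76 ± 0.14 on the log2 scale (edgeR interaction, adjusted p = 0.0165), in a test where 0.568% of all genes were called. That p was above 0.05 with no filter on low counts (0.436), in 1 fit over all groups (0.465), without C9a.MEF replicate 3 (0.0513) and without hCD2.SII replicate 2 (0.0605). The controls differed too: Runx1 was lower in hCD2.MEF than in C9a.MEF (log2 fold change -0.51 ± 0.07, adjusted p = 7.57e-05). Zbtb46 differed between the controls as well, with 3.07, 2.59, 2.74 and 2.52 CPM in hCD2.MEF and 1.28, 1.25, 1.29 and 1.31 CPM in C9a.MEF. That was 1 of 6 genes tested there (log2 fold change 1.11 ± 0.23, edgeR adjusted p = 0.0029), where 2.93% of all genes were called and 1.43% were higher. In hCD2.SII cells Zbtb46 had 2.12, 2.09 and 3.4 CPM, which overlapped hCD2.MEF (log2 fold change -0.13 ± 0.28, adjusted p = 0.733).

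The 3 C9a cocktails share their MEF controls, so they were also set against one another directly on day 9. PIB cells were lower than PIP cells in 4 of 7 genes, where 21.6% of all genes were called and 11% were lower. The log2 fold changes of PIB over PIP were -4.77 ± 0.25 for Cbfa2t3 (edgeR adjusted p = 2.98e-09), -4.36 ± 0.21 for Zbtb46 (9.72e-10), -1.16 ± 0.22 for Bcl11a (0.000751) and -1.42 ± 0.25 for Runx3 (0.000333). Runx1 was the exception, at 0.57 ± 0.10 in PIB over PIP (edgeR adjusted p = 0.00039), under 2-fold. PIB cells were lower than C9a.SII cells in 2 of 6 genes tested, where 18.5% of all genes were called and 9.92% were lower: Runx3 at -3.07 ± 0.26 (edgeR adjusted p = 3.63e-06) and Zbtb46 at -2.14 ± 0.37 (adjusted p = 0.000714). PIP and C9a.SII cells differed in 4 of 7 genes, where 22.5% of all genes were called, 11.5% lower and 10.9% higher. Runx3 was lower in PIP (-1.64 ± 0.21, edgeR adjusted p = 8.73e-05), and Zbtb46 and Bcl11a were higher in PIP (2.28 ± 0.23 and 1.46 ± 0.18, adjusted p = 1.48e-05 and 5.36e-05). The fourth was Cbfa2t3 (4.13 ± 1.11, edgeR adjusted p = 0.0186), where C9a.SII replicate 1 overlapped the PIP libraries and the call was lost under 7 of the alternatives listed further on.

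These patterns were already present on day 3. PIP called the same 3 genes on that day, where 21.8% of all genes were called and 10.6% were higher: Cbfa2t3 with 13, 14.1 and 6.71 CPM in PIP cells (log2 fold change over C9a.MEF 4.66 ± 0.40, edgeR adjusted p = 4.66e-05), Zbtb46 with 10.4, 10.2 and 16.1 CPM (3.33 ± 0.18, adjusted p = 5.9e-06) and Bcl11a with 13.2, 13.9 and 15.9 CPM (1.80 ± 0.17, adjusted p = 8.66e-05). All PIP libraries were above all 4 MEF libraries for each of the 3. In C9a.SII cells 1 of 6 genes tested was called on day 3, where 17.6% of all genes were called and 8.84% were higher. It was Runx3, with 22.7, 10.1, 18.2 and 4.31 CPM, spread over a wide range but above the MEFs (log2 fold change 2.48 ± 0.49, edgeR adjusted p = 0.00399). Without replicate 2, the library with almost no Ptprc, Runx3 was at 2.63 and Bcl11a was called as well (1.03, edgeR adjusted p = 0.00314). In hCD2.SII cells 2 of 6 genes tested were called on day 3, where 24.1% of all genes were called and 10.8% were higher. Runx3 had 15.8, 15.1, 45 and 48.5 CPM in hCD2.SII cells (log2 fold change 3.57 ± 0.50, edgeR adjusted p = 0.000508), and Runx1 had 110.8, 91.7, 158.5 and 145.4 CPM (1.37 ± 0.17, adjusted p = 8.34e-05). The 2 libraries highest in Runx3 were also the 2 highest in Runx1 and in Cbfb, which had 100.6, 97.3, 141.5 and 137.1 CPM (log2 fold change 0.83 ± 0.12, adjusted p = 0.000187). PIB called none of 6 genes tested with edgeR on day 3, where 22.8% of all genes were called, with 3 at an unadjusted p under 0.05 and none called by the DESeq2 Wald test. Cbfa2t3, below the count filter in PIB cells on day 3 at 0.755, 1.48, 1.88 and 0.97 CPM, was called higher where the filter was removed (log2 fold change 1.37, adjusted p = 0.041) and in 5 of the fits that left out a library.

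**Figure D3:**
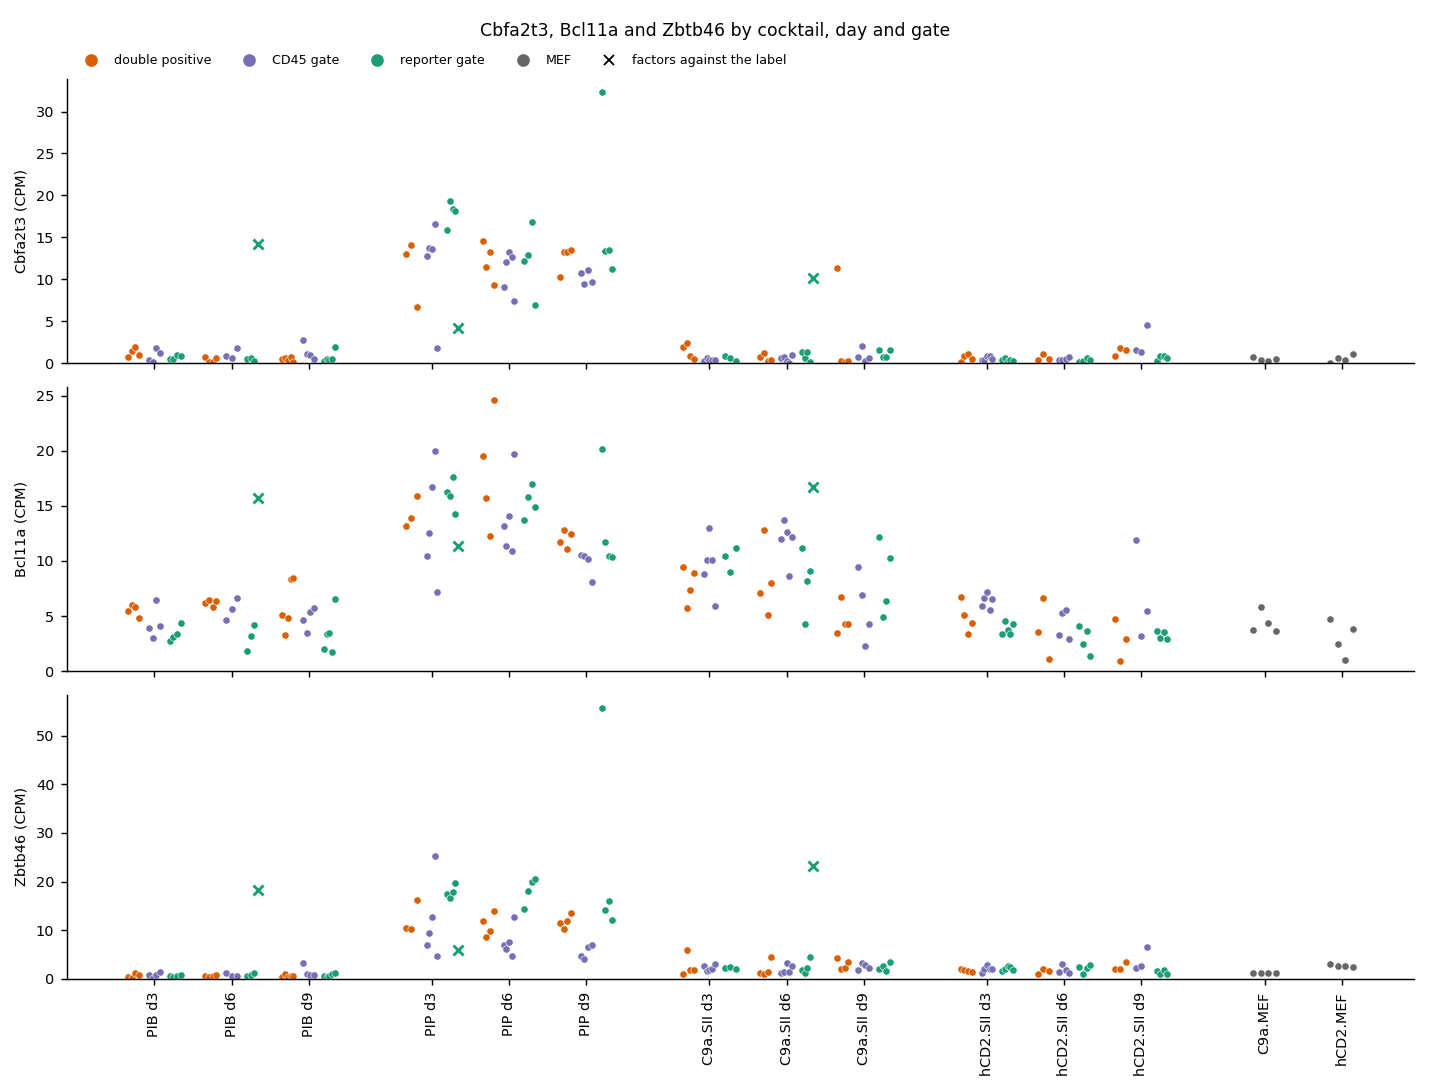
CPM (linear axis) of Cbfa2t3, Bcl11a and Zbtb46 in each library by cocktail, day and sort gate, with C9a.MEF and hCD2.MEF last; crosses mark the 3 libraries whose factors went against their label. For Cbfa2t3 and Zbtb46 the PIP group means lie above those of PIB and SII on all 3 days, and the crosses in PIB and C9a.SII on day 6 lie at PIP levels.

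From day 3 to day 9 edgeR called none of the genes tested, which were 5 in PIB, 7 in PIP, 6 in C9a.SII and 7 in hCD2.SII, where 12.1% of all genes were called in PIB, 6.21% in PIP, 0.103% in C9a.SII and 6.55% in hCD2.SII. Cbfa2t3 was below the count filter in PIB and C9a.SII, and Zbtb46 in PIB. The shares over all genes depended on single libraries. Without C9a.SII day 3 replicate 2, the library with almost no Ptprc, 177 genes were higher and 70 lower of 15853 in C9a.SII, against 15 and 1 with it, and still none of the genes described here was called. Without hCD2.SII day 9 replicate 1, the library high in fibroblast markers, 1604 were higher and 1066 lower of 17033 in hCD2.SII, against 719 and 332 with it, and Bcl11a was called (-1.45). At an unadjusted p under 0.05 there were 4 genes in PIB, 0 in PIP, 1 in C9a.SII and 3 in hCD2.SII. The DESeq2 Wald test called 1, Runx3 in hCD2.SII (log2 fold change of day 9 over day 3 -1.37, adjusted p = 0.0242), for which edgeR gave -1.36 ± 0.51 (adjusted p = 0.133). Runx1 in PIB cells was at 76.2, 70.8, 42.9 and 51.1 CPM on day 3 and at 99.8 to 147.4 CPM on day 9, without overlap (log2 fold change of day 9 over day 3 0.70 ± 0.12, edgeR adjusted p = 0.000873). On day 6 PIB cells had 88.96 to 109.5 CPM of Runx1, above all day 3 libraries and overlapping day 9. In PIP cells the means of Cbfa2t3 were 11.3, 12.2 and 12.6 CPM on days 3, 6 and 9, those of Zbtb46 were 12.2, 11.1 and 11.8 CPM, and those of Bcl11a were 14.3, 18.03 and 12.02 CPM. The mean of Runx3 in hCD2.SII cells was 31.1, 15.6 and 12.4 CPM on days 3, 6 and 9, and in C9a.SII cells 13.8, 16.2 and 13.3 CPM.

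The same differences between cocktails ran through all days and gates. Over the 9 combinations of day and gate, without the 3 libraries whose factors went against their label, the group means of Cbfa2t3 ran from 10.2 to 17.9 CPM in PIP, 0.404 to 1.35 CPM in PIB, 0.408 to 3.01 CPM in C9a.SII and 0.391 to 2.49 CPM in hCD2.SII. Those of Zbtb46 ran from 5.66 to 24.5 CPM in PIP, 0.582 to 1.47 CPM in PIB, 2.01 to 3.04 CPM in C9a.SII and 1.4 to 3.81 CPM in hCD2.SII. For both genes the lowest PIP mean was above the highest mean of any other cocktail. Bcl11a was less clear-cut, with group means of 9.8 to 18.03 CPM in PIP, 3.08 to 6.19 CPM in PIB, 4.69 to 11.8 CPM in C9a.SII and 2.83 to 6.85 CPM in hCD2.SII, where the highest C9a.SII mean, in day 6 CD45+ cells, lay within the PIP range.

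Runx3 had group means of 1.49 to 3.3 CPM in PIB, 2.9 to 4.46 CPM in PIP, 9.45 to 22.9 CPM in C9a.SII and 4.14 to 31.1 CPM in hCD2.SII. The lowest SII means were those of hCD2.SII YFP+ cells on days 6 and 9, at 4.72 and 4.14 CPM, within reach of PIP. Runx2 and Cbfb ran at a lower level in the Pu.1 cocktails: Runx2 means were 14.7 to 19.6 CPM in PIB and 15.6 to 20.4 CPM in PIP, and 23.8 to 40.9 CPM in C9a.SII and 22.6 to 42.1 CPM in hCD2.SII. Cbfb means were 49.4 to 65.4 CPM in PIB and 48.8 to 60.9 CPM in PIP, and 64.9 to 103.1 CPM in C9a.SII and 67 to 119.1 CPM in hCD2.SII. The ranges of Cbfb in PIB and C9a.SII overlapped slightly, and these ranges are descriptions that were not tested.

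**Figure D4:**
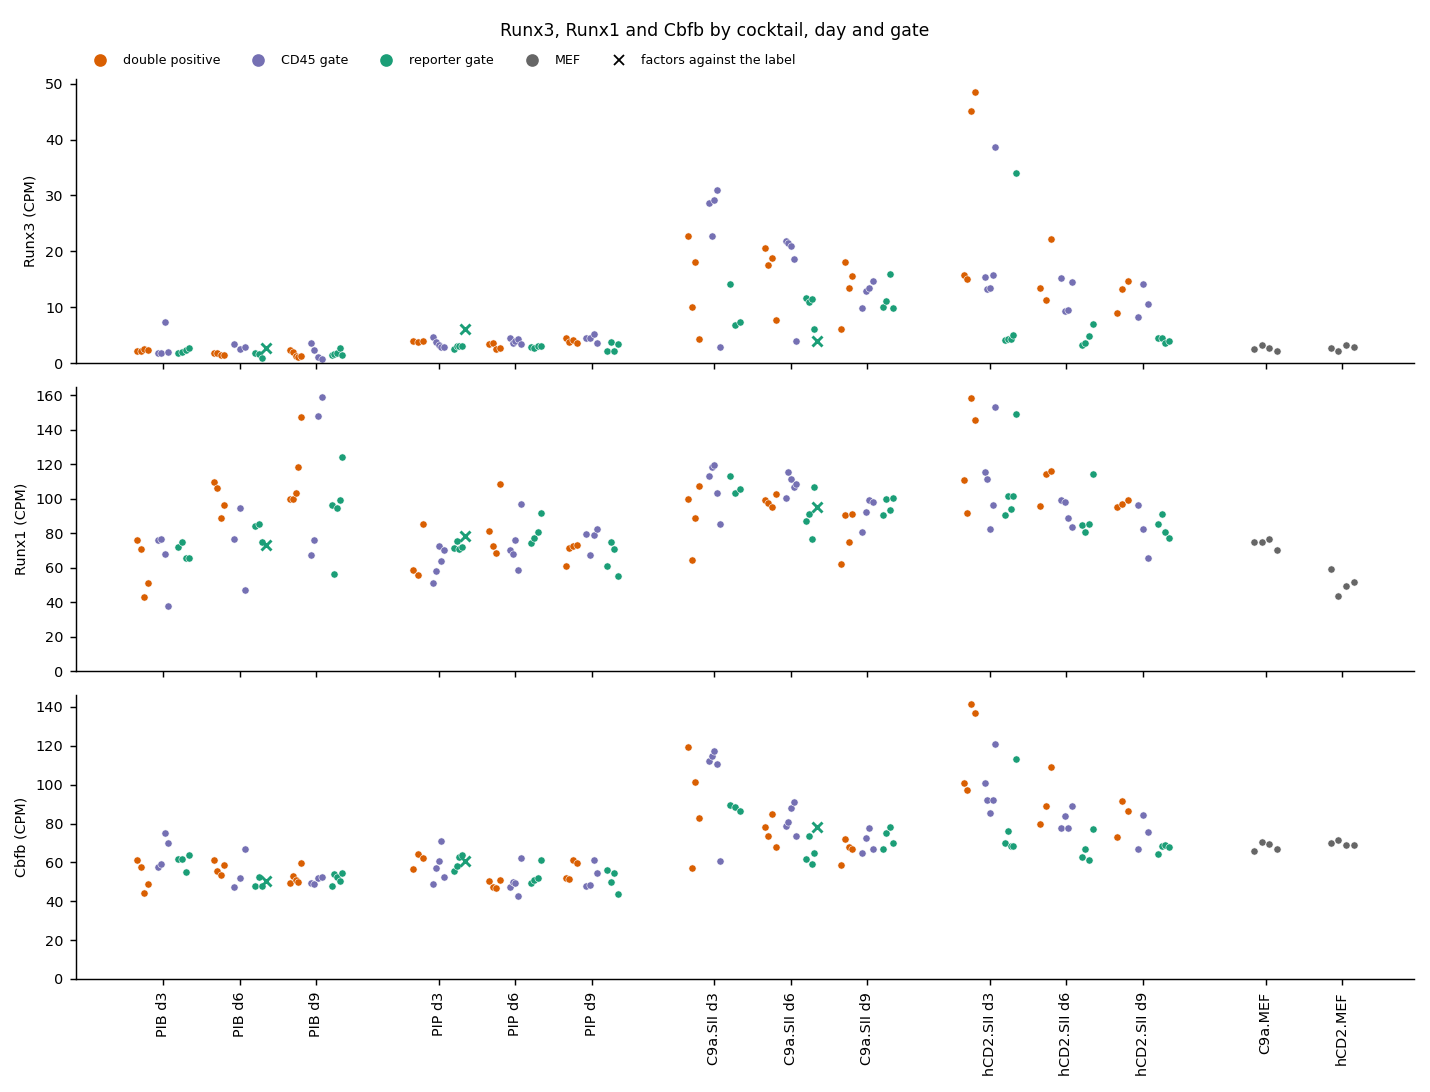
CPM (linear axis) of Runx3, Runx1 and Cbfb in each library by cocktail, day and sort gate, with C9a.MEF and hCD2.MEF last; crosses mark the 3 libraries whose factors went against their label. Runx3 is above the highest MEF library in the SII libraries, except 1 C9a.SII CD45+ library on day 3 at 2.95 CPM, and close to the MEF level in PIB and PIP group means, and on day 9 in the hCD2 line the double positive libraries at 9.04 to 14.8 CPM lie above the YFP+ libraries at 3.62 to 4.47 CPM.

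Runx3 differed between 2 sort gates in the hCD2 line. On day 9 the double positive hCD2.SII cells had 9.04, 13.3 and 14.8 CPM of Runx3, against 4.43, 4.47, 3.62 and 4.05 CPM in YFP+ cells. The groups did not overlap (log2 fold change 1.58 ± 0.21, edgeR adjusted p = 0.00226), and it was the only 1 of 6 genes tested that was called, where 12.2% of all genes were called and 8.08% were higher. The 2 gates also differed in the transduced factor: Spib had 53.8, 147.3 and 175 CPM in double positive cells and 11.7 to 12.4 CPM in YFP+ cells, and Ptprc had 71.2 to 271 CPM and 0.45 to 0.63 CPM. The part of the cocktail's dose in Runx3 was not tested. In the C9a line none of the 5 genes tested in PIB, 7 in PIP and 6 in C9a.SII was called between double positive and tdT+ cells with edgeR or the DESeq2 Wald test, where 1.7% of all genes were called in PIB, 0.0122% in PIP and 0.148% in C9a.SII. At an unadjusted p under 0.05 there was 1 gene each in PIB and C9a.SII, Bcl11a in both, and 0 in PIP.

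Each cocktail was also set against 1 splenic subset, and the transduced cells were far below it in Cbfa2t3 and Bcl11a. PIB cells were lower than cDC1 in 4 of 7 genes, where 57.5% of all genes were called and 32.2% were lower. The log2 fold changes of PIB over cDC1 were -9.04 ± 0.18 for Cbfa2t3 (edgeR adjusted p = 3.61e-14), -8.18 ± 0.14 for Zbtb46 (5.27e-15), -4.87 ± 0.19 for Runx3 (1.06e-11) and -4.46 ± 0.22 for Bcl11a (3.99e-08). Runx1 and Runx2 were at 0.61 ± 0.12 and -0.04 ± 0.12 (adjusted p = 0.000234 and 0.743), with every PIB library above every cDC1 library for Runx1. PIP cells were lower than cDC2 in 6 of 7 genes, where 56% of all genes were called and 26.7% were lower. After the rise described above, Cbfa2t3 in PIP was still at -5.48 ± 0.10 relative to cDC2 (edgeR adjusted p = 1.25e-16), Zbtb46 at -4.21 ± 0.10 (1.62e-15) and Bcl11a at -4.86 ± 0.11 (1.58e-15). Runx3 was at -5.82 ± 0.10 (edgeR adjusted p = 1.26e-16) and Runx2 at -1.89 ± 0.12 (3.85e-10).

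SII holds Irf8 and Spib, which pDC express, and its cells were compared with pDC. C9a.SII cells were lower than pDC in 4 of 7 genes, where 38.2% of all genes were called and 19.7% were lower. hCD2.SII cells were lower in 4 and higher in 1, where 33% of all genes were called, 17.7% lower and 15.2% higher. Both comparisons use the same 5 pDC libraries. Runx2 was at -5.39 ± 0.40 in C9a.SII (edgeR adjusted p = 2.91e-06) and -5.02 ± 0.45 in hCD2.SII (3.14e-05), and Bcl11a at -6.93 ± 0.36 and -7.69 ± 0.69 (9.18e-07 and 3.08e-05). Runx3, which was higher in SII cells than in MEFs, was at -2.38 ± 0.31 and -2.60 ± 0.33 relative to pDC (edgeR adjusted p = 0.000128 and 0.000247). Cbfa2t3 was at -6.85 ± 1.33 in C9a.SII (edgeR adjusted p = 0.00299) and, without C9a.SII replicate 1, at -9.22. In hCD2.SII it was at -6.87 ± 0.44 (edgeR adjusted p = 1.17e-05). Runx1 was higher in hCD2.SII than in pDC (1.09 ± 0.25, edgeR adjusted p = 0.00793), and at 0.97, under 2-fold, without pDC replicate 2. Tissue, genotype and culture differ between all transduced and splenic groups and cannot be told apart.

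The share of each RUNX gene in the summed counts of the 3 shows the same contrast within a library, free of its depth. Runx2 took 89.5% of RUNX counts in pDC (mean, range 87.3 to 91.9%), against 19.9% in C9a.SII cells and 22.6% in hCD2.SII cells. Runx3 took 60.1% in cDC2 and 35.3% in cDC1. Among the transduced cells its mean share was 11% in C9a.SII, 8.69% in hCD2.SII, 4.56% in PIP and 1.31% in PIB, with 2.57% in C9a.MEF and 3.46% in hCD2.MEF. Runx1 took 87.2% in PIB cells, the highest share of the 9 groups, with 71.3% in C9a.MEF. These are shares of counts and not per length.

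**Figure D5:**
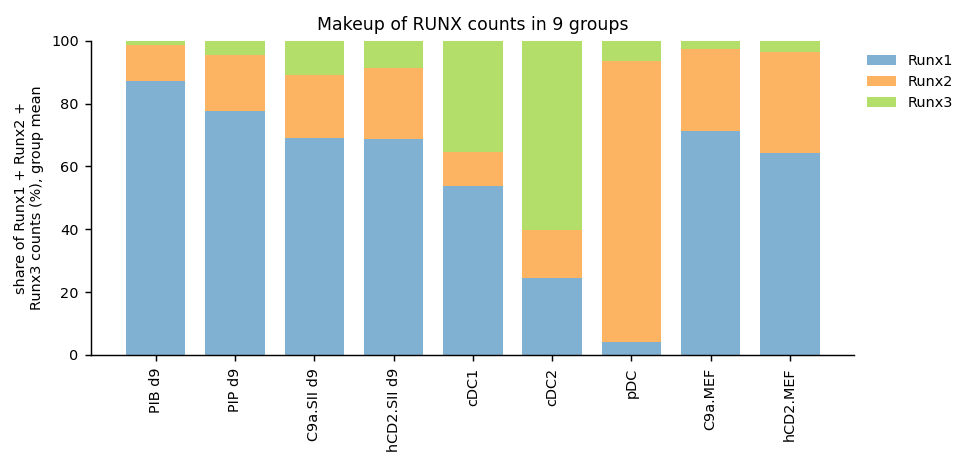
Mean share (%) of Runx1, Runx2 and Runx3 in the sum of their counts in 9 groups, as stacked bars that start at 0 and sum to 100; shares are of counts, not per length. Runx1 leads in the transduced cells and MEFs, Runx3 takes 60.1% in cDC2 and Runx2 89.5% in pDC.

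The remaining day 9 levels of hCD2.SII cells were 30.6, 35.1 and 30.4 CPM for Runx2, against 25.9, 24.5, 23.9 and 27.3 CPM in hCD2.MEF, and 72.9, 91.4 and 86.3 CPM for Cbfb, against 69.8, 71.4, 69.1 and 68.8 CPM. Both were above the MEF libraries without overlap, by 0.33 ± 0.11 and 0.25 ± 0.11 on the log2 scale (edgeR adjusted p = 0.0514 and 0.0914). Cbfa2t3 had 0.866, 1.79 and 1.53 CPM in hCD2.SII cells, against 0.0698, 0.648, 0.353 and 1.09 CPM in hCD2.MEF, and Bcl11a had 4.71, 0.897 and 2.89 CPM, against 4.74, 2.43, 0.971 and 3.78 CPM. Both overlapped, with adjusted p-values of 0.161 and 0.953. In C9a.SII cells Runx2 and Cbfb had means of 23.8 ± 8.0 and 66.2 ± 5.7 CPM, against 27.1 ± 2.3 and 68.2 ± 2.3 CPM in C9a.MEF, which overlapped too (log2 fold changes -0.04 ± 0.14 and 0.05 ± 0.07, edgeR adjusted p = 0.857 and 0.593).

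Over the 9 groups every splenic subset lay above every transduced and MEF group for Cbfa2t3, Bcl11a and Runx3. Cbfa2t3 and Bcl11a were highest in the 3 splenic subsets, followed by PIP cells (12.6 ± 1.5 and 12.02 ± 0.79 CPM), and for Cbfa2t3 all groups below PIP overlapped with their neighbours. Zbtb46 was highest in cDC2 and cDC1, followed by PIP cells (11.8 ± 1.4 CPM), which overlapped pDC (6.84 ± 4.5 CPM). Runx3 ran from cDC2 through pDC and cDC1, which overlapped, to C9a.SII and hCD2.SII, which overlapped, and then PIP, with PIB lowest. Runx1 and Cbfb had narrower ranges of group means than the other genes described here. Runx1 group means ran from 47.4 CPM in pDC to 113.8 CPM in PIB, and Cbfb means from 50.7 CPM in pDC to 134.4 CPM in cDC2, with most neighbours overlapping.

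Partners and targets of these genes were counted in lists chosen by name, and the counts over MEFs on day 9 are to be read against the shares of all genes called there, 21.8% in PIB, 29.6% in PIP, 21.4% in C9a.SII and 19.2% in hCD2.SII. Among 16 RUNX cofactors, 3 were higher and 2 lower in PIB cells than in MEFs, 2 and 3 in PIP, 2 and 2 in C9a.SII, and 2 and 0 in hCD2.SII, with list medians of 0.06, -0.24, -0.01 and 0.11 beside medians of all genes of 0.00, 0.05, 0.03 and 0.01. The corepressor Tle1 had 146.4 ± 39 CPM in C9a.SII cells, against 26.4 ± 1.6 CPM in C9a.MEF (log2 fold change 2.55 ± 0.13, edgeR adjusted p = 7.04e-08), and 147.5 ± 47 CPM in hCD2.SII cells, against 26.4 ± 1.8 CPM in hCD2.MEF (2.47 ± 0.22, adjusted p = 0.00023). Runx1t1, which encodes the ETO corepressor related to ETO2, had 5.31 ± 0.61 CPM in PIP cells, against 59.4 ± 3.1 CPM in C9a.MEF (log2 fold change -3.25 ± 0.10, edgeR adjusted p = 1.35e-14). In PIB cells Runx1t1 was lower as well (-1.62 ± 0.12, adjusted p = 7.6e-08).

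ETO2 acts in a complex with LDB1, LMO2 and the SCL or LYL1 factor. Of the 12 members of that list tested in PIP cells 1 was higher and 2 lower, beside 29.6% of all genes called, and the higher one was Lmo2, with 17.9 ± 3.8 CPM in PIP cells and 0.782 ± 0.36 CPM in C9a.MEF (log2 fold change 4.75 ± 0.24, edgeR adjusted p = 4.52e-11). Of 13 tested in C9a.SII cells 3 were higher and 2 lower, led by Lyl1 with 11.4 ± 3.6 CPM and 0.241 ± 0.12 CPM in C9a.MEF (5.62 ± 0.31, adjusted p = 1.37e-07). The other counts were 2 higher and 2 lower of 13 in PIB and 2 and 1 of 13 in hCD2.SII. In the spleen the list held Tcf4, the E protein of pDC identity, at 35.2 ± 14 CPM in cDC1, 83.7 ± 6.6 CPM in cDC2 and 1703 ± 643 CPM in pDC (log2 fold change of cDC1 over pDC -5.52 ± 0.50, edgeR adjusted p = 1.65e-05).

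Of 12 blood genes known as RUNX targets, 4 were tested in each cocktail, with 2 higher in PIB, 2 higher and 1 lower in PIP and C9a.SII, and 1 and 1 in hCD2.SII. Csf1r, the receptor for macrophage colony-stimulating factor and a target of both RUNX1 and PU.1, had 29.5 ± 11 CPM in PIB cells and 42.2 ± 2.6 CPM in PIP cells, against 1.104 ± 0.573 CPM in C9a.MEF. Its log2 fold changes were 4.79 ± 0.39 and 5.49 ± 0.17 (edgeR adjusted p = 4.24e-06 and 7.73e-14). Csf1r is also 1 of the 11 macrophage markers, whose sum is given above for both cocktails. In the spleen Itgae (CD103), a Runx3 target in T cells, went against the order of Runx3, with 115.6 ± 8.6 CPM in cDC1 and 0.55 ± 0.57 CPM in cDC2. Csf1r and Cd4 of the same list were lower in cDC1 than in cDC2, as Runx3 was. Csf1r had 8.44 ± 3.1 CPM in cDC1 and 228.7 ± 13 CPM in cDC2, and Cd4 had 10.5 ± 3.5 and 180.8 ± 8.9 CPM. Of the bone genes driven by RUNX2, 3 of 6 tested were lower in PIB, 4 of 7 in PIP with 3 higher, and 3 of 6 in C9a.SII with 1 higher. They include the collagenase Mmp13, with 2.16 ± 1.1 CPM in C9a.SII cells against 136.35 ± 19 CPM in C9a.MEF (log2 fold change -6.21 ± 0.29, edgeR adjusted p = 1.33e-07). The list medians were -1.15, -2.08 and -1.60, in cells whose fibroblast marker sum was lower too. In hCD2.SII none of 5 was called.

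Of the 14 BCL11 and NuRD genes at most 2 were called in any cocktail. The paralog Bcl11b, the T cell factor, was lower in the 3 C9a cocktails, with 8.22 ± 2.3 CPM in PIB, 6.42 ± 0.79 CPM in PIP and 7.02 ± 5.2 CPM in C9a.SII, against 24.2 ± 1.5 CPM in C9a.MEF. Of 21 core conventional dendritic cell genes, 12 were tested in PIB, with 6 higher and 2 lower where 21.8% of all genes were called, and 12 in PIP, with 6 higher and 3 lower where 29.6% were. Only 10 were tested in each SII line, with 4 higher in both and 2 lower in hCD2.SII, where 21.4% of all genes were called in C9a.SII and 19.2% in hCD2.SII. The higher genes in PIB and hCD2.SII all had means under 10 CPM in both groups compared. The lower ones, Rab30 and Cnn2 in PIB and Adam19 and Hmgn3 in hCD2.SII, were above 10 CPM in MEFs. A gene silent in MEFs passed the count filter only where the transduced cells expressed it. Among those higher in PIP, the immune receptor Slamf7 had 186 ± 19 CPM in PIP cells and 0.0683 ± 0.088 CPM in C9a.MEF. Among those lower, Adam19 had 7.81 ± 0.98 CPM in PIP cells and 151.1 ± 5.4 CPM in C9a.MEF. In the spleen 16 of 21 were higher and 2 lower in cDC1 than in pDC (list median 1.93, all genes -0.14), and 13 and 2 in cDC2 (1.93, all genes -0.13). Of all genes, 7.88% were higher and 7.88% lower in cDC1 than in pDC, and 11.7% higher and 23.2% lower in cDC2. Of 11 regulators of pDC development, 3 of 10 tested were higher in each cocktail, which in SII includes the transduced Spib, and 1 was lower in PIB, 2 in PIP and 0 in both SII lines. Ets1, a transcription factor of the list, was lower in PIB and PIP (log2 fold changes -1.32 ± 0.28 and -1.66 ± 0.08, edgeR adjusted p = 0.00328 and 9.6e-12). Id2, which blocks the pDC factor TCF4 and is known to be repressed by ETO2, was higher in all 4: 43.7 ± 1.7 CPM in PIB, 47.4 ± 1.9 CPM in PIP and 110.5 ± 9.8 CPM in C9a.SII, against 15.4 ± 1.3 CPM in C9a.MEF. The mean was 135.8 ± 57 CPM in hCD2.SII cells, against 13.8 ± 0.62 CPM in hCD2.MEF.

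Across the means of the 41 groups, Cbfa2t3 ran closest to Zbtb46 and Bcl11a among the 7 genes, with Pearson correlations of log2(CPM + 1) of 0.91 for both. For Bcl11a and Zbtb46 it was 0.76, for Runx3 and Cbfb 0.75 and for Runx2 and Runx3 0.62. The groups share lines, libraries and depth, and the 3 splenic points lie far from the other 38, so these are descriptions. The means include the libraries whose factors went against their label. Of 13231 other genes compared with each member in the same way, those most alike were Sema4d (0.97), Grk3 (0.97) and Tnni2 (0.96) for Cbfa2t3, Malt1 (0.96), Nectin4 and Sh2d3c (0.95 each) for Bcl11a, and Arhgap26 (0.95), Card9 and Card10 (0.93 each) for Zbtb46. For Runx3 they were Dennd1c, Myo1g (0.96 each) and Map4k1 (0.95), for Runx2 Lrp8 (0.94), Adprhl2 (0.94) and Abhd17b (0.93), for Cbfb Rbm27 (0.92), Ncaph (0.90) and Nrm (0.88), and for Runx1 Aggf1 (0.82), Ssh1 and Ccdc102a (0.79 each).

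On GRCm38, in the GENCODE M21 annotation, Runx1 (ENSMUSG00000022952) lies at chr16:92601466-92826149, Runx2 (ENSMUSG00000039153) at chr17:44495987-44814797, Runx3 (ENSMUSG00000070691) at chr4:135120652-135177990, Cbfb (ENSMUSG00000031885) at chr8:105170674-105217989, Cbfa2t3 (ENSMUSG00000006362) at chr8:122625141-122699109, Bcl11a (ENSMUSG00000000861) at chr11:24078056-24174123 and Zbtb46 (ENSMUSG00000027583) at chr2:181387762-181459426. Runx3, Cbfb and Bcl11a are on the plus strand and the others on the minus strand. Supt3 lies across 37646 bases of Runx2 on the opposite strand, with group means of up to 25.2 CPM, and without a stated strand setting the reads of the 2 genes cannot be told apart there.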

How the data were processed

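The deposited values are raw counts per Ensembl gene in 167 libraries, each made from RNA of sorted cells with the SMARTer Stranded Total RNA Pico v3 kit, per the labels' protocols. The submitters' processing notes name mm10, STAR 2.7.9a and Salmon 1.10.1. How reads were assigned to strands, with which of these tools and with which gene models is not given in the sources used here. Of 57010 identifiers 52029 were named through GENCODE M21, and the unnamed ones held a median of 13.2% of counts (5.98 to 32.1%). No 2 libraries of a group agreed within sampling noise (lowest chi-square per degree of freedom 2.68 over 266 pairs).

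Each comparison was fitted on its own 2 groups over all genes with edgeR 4.0.16 in R 4.3.3 (quasi-likelihood F test, TMM scaling, filterByExpr, robust dispersion), with Benjamini-Hochberg adjustment. The SE is the absolute log2 fold change over the square root of F. The scripts were tested on simulated counts. Alternatives were the size factors and Wald test of DESeq2 1.42.0, no count filter, 1 fit over all 41 groups, a replicate block, and leaving out single libraries and those under 2000000 counts. The limit of 3 counts covers counting error only, and SDs and SEs the spread between libraries.

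The 7 genes and all lists were chosen with earlier results of these data known. Named list genes are up to 3 called per list and comparison with the largest change and at least 10 CPM in a group, of which a part is printed, and those most alike are the 3 of highest correlation with at least 5 CPM in a group. Replicate numbers have no stated meaning. They met the pairing threshold, a correlation of deviations over 0.1 in every pair, in hCD2.SII day 9 against hCD2.MEF alone (3 pairs, 0.109 to 0.224), where the replicate block left 1 call, as without it.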

Additional observations from a re-analysis of the deposited data

Results flagged for a closer look

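A library was set apart where its gap to the nearest library of its group was large for the range of the group (Dixon's test at 95%, groups of 4 or 5). Of 231 tests of a gene in a group 30 met this, where chance gives about 1 in 20 groups.

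In the 3 libraries whose transduced factors went against the label, the genes stood apart from the other libraries of the group. PIB day 6 tdT+ replicate 4, with 539 CPM of Irf4 and 639 CPM of Prdm1, had 14.2 CPM of Cbfa2t3, 15.8 of Bcl11a and 18.2 of Zbtb46, and the other libraries of its group had at most 0.596, 4.16 and 1.26 CPM. C9a.SII day 6 tdT+ replicate 5, with 658 CPM of Irf4 and 773 CPM of Prdm1, had 10.1 CPM of Cbfa2t3 and 23.3 of Zbtb46, against at most 1.36 and 4.50 CPM in the others. PIP day 3 tdT+ replicate 5, with 112.4 CPM of Spib and 3.94 CPM of Irf4, had 4.16 CPM of Cbfa2t3 and 5.92 of Zbtb46, below the 15.9 and 16.6 CPM or more of the others, and 42.96 CPM of Runx2 and 6.14 of Runx3, above the 19.2 and 3.12 CPM or less of the others.

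In SII cells hCD2.SII day 3 YFP+ replicate 5 had 33.98 CPM of Runx3, 149.2 of Runx1 and 113.1 of Cbfb, where the others had at most 5.08, 101.7 and 76.2 CPM. Its Ptprc was 34.2 CPM, against under 1 CPM in the others. In the CD45+ gate on the same day replicate 5 had 38.6 CPM of Runx3 (others 13.4 to 15.8). In hCD2.SII on day 6 replicate 4 had 114.3 CPM of Runx1 in the YFP+ gate (others 80.8 to 85.2) and 29.7 CPM of Runx2 in the CD45+ gate (others 26.3 to 26.8). C9a.SII CD45+ replicate 5 was low, with 60.9 CPM of Cbfb on day 3 (others 110.5 to 117.4) and 3.91 CPM of Runx3 on day 6 (others 18.6 to 21.8). On day 3 its Ptprc was 22.4 CPM, against 313 to 366 CPM in the others. C9a.SII day 9 double positive replicate 1 had 11.3 CPM of Cbfa2t3, from 13 counts (others 0.171 to 0.321), day 6 double positive replicate 4 had 4.52 CPM of Zbtb46 (others 1.02 to 1.39), and day 3 CD45+ replicate 2 had 0.622 CPM of Cbfa2t3, from 6 counts (others 0.305 to 0.394).

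In PIP cells day 9 tdT+ replicate 1 had 32.3 CPM of Cbfa2t3, 20.1 of Bcl11a and 55.7 of Zbtb46, and the others had at most 13.5, 11.7 and 16.1 CPM. Its Irf4 and Prdm1 were at 757 and 1010 CPM. PIP day 3 CD45+ replicate 5, with 1.71 CPM of Ptprc, had 1.82 CPM of Cbfa2t3 (others 12.8 to 16.5). PIP day 9 CD45+ replicate 4 had 8.05 CPM of Bcl11a (others 10.2 to 10.6), and PIP day 9 double positive replicate 1 had 10.3 CPM of Cbfa2t3 (others 13.2 to 13.5). In PIB cells day 3 CD45+ replicate 3 had 7.38 CPM of Runx3 (others 1.89 to 2.01), day 9 tdT+ replicate 4 had 2.73 CPM of Runx3 (others 1.42 to 1.77), day 9 tdT+ replicate 5 had 1.99 CPM of Cbfa2t3 (others 0.285 to 0.495) and day 9 CD45+ replicate 1 had 3.18 CPM of Zbtb46 (others 0.768 to 1.07).

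The change of Runx1 after SII differed between the lines by 0.76 on the log2 scale (edgeR interaction, adjusted p = 0.0165), as described above. The part of Ptprc, of the factors or of single libraries in these values was not tested.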

How the results depend on the processing

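Across 28 comparisons, 2419 of 2457 gene values under an alternative kept their side of the threshold, 26 passed it and 12 fell under it. A change of sign was counted only where the gene was called in either fit, and 0 such changes occurred. The sign of genes called in neither fit was not followed. Counts of called genes moved by over 1.5 times in 22 of 379 cases, and unless stated below the cause was not tested. With 1 fit over all groups cDC1 over cDC2 gave 5 calls (3 in the two-group fit), C9a.SII day 9 over C9a.MEF 1 (2), hCD2.SII day 9 over day 3 1 (0) and hCD2.MEF over C9a.MEF 0 (1); this fit shifted the median of all genes by -0.45 in the first. DESeq2 size factors gave 5 calls for cDC1 over pDC (3), adding Runx1 and Cbfa2t3 at 1.00 and 1.03. No count filter gave 1 call for C9a.SII day 9 over C9a.MEF (2) and, since Cbfa2t3 was then tested, 1 for PIB day 3 over C9a.MEF (0). The DESeq2 Wald test gave 1 for hCD2.SII day 9 over day 3 (0).

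With each library left out in turn the calls ran from 3 to 6 for cDC1 over pDC (3; 6 without pDC replicate 5, adding Runx1, Cbfb and Cbfa2t3 at 1.13, 1.05 and 1.16), 3 to 4 for cDC1 over cDC2 (3), 4 to 6 for hCD2.SII over pDC (5), 4 to 5 for C9a.SII over pDC (4), 5 to 6 for PIP over cDC2 (6), 3 to 4 for PIP over C9a.SII (4), 1 to 2 for C9a.SII day 3 over C9a.MEF (1), 2 to 3 for hCD2.SII day 3 over hCD2.MEF (2) and 1 to 2 for hCD2.SII double positive over YFP+ (1). They ran from 0 to 1 for PIB over C9a.MEF on days 3 and 9, PIB double positive over tdT+, and day 9 over day 3 in PIB and hCD2.SII (0 each), and did not change in the other comparisons. The added calls were Zbtb46 in PIB day 9 without PIB replicate 2 or 4 (-1.18 and -1.01), Bcl11a in PIB over tdT+ without tdT+ replicate 5 (1.18), Cbfa2t3 in PIB day 9 over day 3 without day 3 replicate 1 (-1.72), Bcl11a in hCD2.SII day 9 over day 3 without day 9 replicate 1 (-1.45), Cbfa2t3 in hCD2.SII over YFP+ without double positive replicate 1 (1.24) and Bcl11a in hCD2.SII day 3 without hCD2.MEF replicate 1 (1.07).

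Cbfa2t3 in PIP over C9a.SII lost its call with no filter, the Wald test, the replicate block and 4 left-out libraries (adjusted p 0.0593 to 0.199), and without C9a.SII replicate 1 it was at 5.89. The replicate block, where numbers are shared but not known to pair cells, gave 4 calls for cDC1 over pDC, 3 for PIP over C9a.SII and 6 for hCD2.SII over pDC and left the other counts of members as they were. Over all genes the split of higher against lower calls moved by over 10 percentage points without the filter in PIB over cDC1 (6350 against 12656, beside 4833 against 6130), C9a.SII over pDC (2740 against 8942, beside 2862 against 3062) and hCD2.SII over pDC (3917 against 2758, beside 2654 against 3093; 2710 against 2070 with the replicate block and 2120 against 1609 without hCD2.SII replicate 2). Without hCD2.SII replicate 1 the calls over all genes were 3071 against 2762 over hCD2.MEF (beside 1780 against 1384), 2571 against 2363 over YFP+ cells (1306 against 668) and 204 against 607 for the change by line (69 against 32). For hCD2.MEF over C9a.MEF they were 480 against 246 without hCD2.MEF replicate 1 (beside 220 against 230). Depth limits Cbfa2t3, Zbtb46 and Runx3 in MEFs and PIB cells, where libraries hold few counts. Group levels were recomputed as CPM of named identifiers and as TMM-scaled CPM over all libraries. Where a group held a library whose factors went against its label, its level was also recomputed without it. Of 595 such recomputed levels, 183 moved by over 1 SD.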

Other observations

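Among the 36 transduced groups alone, without the splenic and MEF samples, the gene most like Runx3 across group means was Nrcam, a neural adhesion molecule (Pearson correlation of log2(CPM + 1) 0.97), that most like Runx2 was B3galnt2 (0.94) and that most like Runx1 was Dcaf5 (0.87). The groups share lines and cocktails, so these are descriptions.

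In PIP cells the reporter+ gate had the highest Zbtb46 of the 3 gates on each day, with means of 17.9, 18.3 and 24.5 CPM on days 3, 6 and 9 (the first without the library whose factors went against its label), beside 11.8, 7.65 and 5.66 CPM in CD45+ cells and 12.2, 11.1 and 11.8 CPM in double positive cells. On day 9 the tdT+ mean rests on replicate 1 at 55.7 CPM, and the other libraries had 12.02 to 16.1 CPM.

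Bcl11b, the T cell paralog of Bcl11a, had 10.7 ± 3.8 CPM in cDC1 and 1.88 ± 0.34 CPM in cDC2 (log2 fold change 2.47 ± 0.34, edgeR adjusted p = 1.9e-06), the opposite direction to Bcl11a between these subsets. In pDC Bcl11b had 15.2 ± 9.9 CPM (log2 fold change of cDC2 over pDC -2.85 ± 0.60, edgeR adjusted p = 0.00546). Id2 had 289 ± 32 CPM in cDC1 and 116.002 ± 4.74 CPM in cDC2, against 3.23 ± 1.0 CPM in pDC, the subset with the most Runx2. The mean of Bcl11a was also highest in pDC, but its pDC and cDC2 libraries overlapped.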
